A study of Homo sapiens with 15 samples.

Results

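The 28 genes described here were low in the cisplatin-resistant ovarian cancer cell line CP70 and were restored, in part or in full, after decitabine. They were chosen by their measured group means out of 19775 genes, each read on 1 probe set of an Affymetrix expression array. The mean of untreated CP70 had to lie at least 1 log2 unit below that of the cisplatin-sensitive line A2780. The means of CP70 given decitabine and of CP70 given decitabine with PXD101 each had to lie at least 1 log2 unit above both untreated CP70 and CP70 given PXD101 alone. 40 genes met these limits, and 12 of them (ARMCX2, ARMCX3, BEX1, BEX4, GLUL, GPX1, HSPB1, IFI27, MEST, MFAP2, NEFL and PSMB8) were left out by symbol under the rule. The study used 15 arrays in 5 groups of 3 biological replicates, all of A2780 and its derivative CP70 (A2780/cp70 in the treatment protocol). A2780 and 1 CP70 group received no drug. The decitabine group received 0.1 µM for 48 h, with the drug replaced after 24 h. The PXD101 group received 0.1 µM for 48 h. The combined group received 0.1 µM decitabine for 48 h and 0.1 µM PXD101 for 24 h following the first 24 h of decitabine, so exposure to PXD101 was shorter there than in the PXD101 group. Harvest of treated cells followed 96 h after drug removal. The comparison of A2780 with CP70 rests on 1 sensitive line and 1 line derived from it.

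Decitabine is a cytidine analogue that is built into DNA and traps DNA methyltransferases, so that methylation is lost as cells divide. Methylation of the cytosine in CpG dinucleotides at a promoter is associated with stable silencing, and such silencing of genes in drug-resistant cancer lines is one use for which decitabine has been studied. PXD101 (belinostat) inhibits histone deacetylases, whose action removes acetyl groups from histones and is associated with closed chromatin. A gene that is present in the sensitive line, low in the resistant line and present again after decitabine is therefore a common starting point in searches for promoter methylation. DNA methylation itself was not measured on these arrays.

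The arrays had nearly equal medians, from 5.00 to 5.05 log2 over all probe sets other than controls. Replicates within a group correlated at 0.993 to 0.997 in the groups other than untreated CP70. Untreated CP70 replicate 2 stood apart: it correlated with CP70 replicates 1 and 3 at 0.983 to 0.986 and with the 3 PXD101 arrays at 0.995 to 0.997. The rule, the summaries of the loss, of the difference after decitabine and of the share regained, and the test of PXD101 against untreated CP70 are therefore also given without it and with it as the only untreated CP70 array. The values of single genes, neighbours, other probe sets and lists, and the non-additive term, are given with all 3 CP70 arrays only. The difference between the 3' and 5' actin control probe sets, a measure of RNA quality, was 0.63 to 0.86 log2 in untreated CP70, 0.34 to 0.38 in A2780, 0.34 to 0.79 after decitabine, 0.42 to 0.49 after both drugs and 0.38 to 0.51 after PXD101. Its part in the results was not tested. Of 13 ovarian carcinoma epithelial markers, PAX8, a Müllerian lineage transcription factor, was at a mean of 7.08 to 7.30 log2 in every group, whereas WT1, MUC16 and CDH1 had means of at most 4.04 log2, under the 25th percentile of the values of all genes (4.34 log2). From untreated CP70 to decitabine, the mean of KRT19 went from 4.37 to 7.04, KRT8 from 6.68 to 8.05, KRT18 from 9.56 to 10.52 and EPCAM from 7.24 to 7.95. The means of FOLR1 (11.35 to 11.08), MUC16 (4.04 to 3.91), CDH6 (5.12 to 5.07), WT1 (3.68 to 3.64) and CDH1 (3.71 to 3.7) were lower. Those of KRT7 (6.11 to 6.22), MSLN (5.01 to 5.13), CLDN3 (4.95 to 5.06) and PAX8 (7.28 to 7.3) were slightly higher. The summed log2 level of the 13 markers was 75.4 to 76.6 in A2780, 78.1 to 80.1 in untreated CP70, 83.6 to 85.3 after decitabine, 85.7 to 85.9 after both drugs, and 78.1 to 79.2 after PXD101. Leukocyte markers (12 of 14 measured) summed to 53.6 to 54.3 log2 in A2780, 53.8 to 54.2 in untreated CP70, 55.2 to 55.7 after decitabine, 54.6 to 55.5 after both drugs and 53.3 to 54.2 after PXD101, with 5 or 6 of them below the lower quartile in each group. PTPRC, which encodes the pan-leukocyte protein CD45, had group means of 3.76 to 3.95, while TYROBP went from 5.62 in untreated CP70 to 6.92 after decitabine and 6.79 after both drugs, and FCER1G from 4.68 to 5.0 and 5.31. The 14 fibroblast and endothelial markers summed to 90.1 to 92.2 log2, with 3 below the lower quartile in each group, but single markers moved in opposite directions between A2780 and untreated CP70. COL1A1 went from a mean of 8.92 to 6.24 (7.66 after decitabine) and PDGFRA from 6.74 to 5.17, and the mean of COL1A2 was also lower in untreated CP70 (8.62), whereas DCN went from 6.54 to 9.98 and LUM from 4.86 to 7.75. CDH5, the endothelial cadherin, had group means of 3.43 to 3.65. The part of these markers in the results was not tested.

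Because the 5 differences named in the rule chose the genes, they are given as descriptions without a test. On individual arrays, the median level of the 28 genes was 7.51 to 8.50 log2 in A2780, 4.91 to 5.31 in untreated CP70, 6.80 to 7.20 after decitabine, 6.87 to 7.19 after both drugs, and 5.04 to 5.27 after PXD101. 7 of the 28 had a mean under that 25th percentile in untreated CP70 and 7 after PXD101, and 0 in the other 3 groups. The loss in CP70 ranged from 1.03 log2 (CCN2) to 7.01 log2 (MAB21L2), with a median of 2.24 log2. The difference between decitabine and untreated CP70 ranged from 1.04 log2 (GPR158) to 3.47 log2 (S100A3), with a median of 1.83 log2. In RNA of whole cultures, fewer cells that express a gene and less RNA per cell cannot be told apart. Lowest and highest arrays did not overlap between untreated CP70 and A2780 in 28 of 28 genes (38.3% of all genes), nor between decitabine and untreated CP70 in 28 of 28 (19.9% of all genes), as the rule favours. The same held in 28 of 28 between decitabine and PXD101 (28.8% of all genes), between both drugs and untreated CP70 (23.6%) and between both drugs and PXD101 (33.3%). For scale, 912 genes (4.61%) had a mean at least 1 log2 lower in untreated CP70 than in A2780, and 300 (1.52%) had a mean at least 1 log2 higher after decitabine than in untreated CP70. Higher by that margin were 1.8% of all genes after both drugs against untreated CP70, 1.96% after decitabine against PXD101 and 2.2% after both drugs against PXD101.

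**Figure D1:**
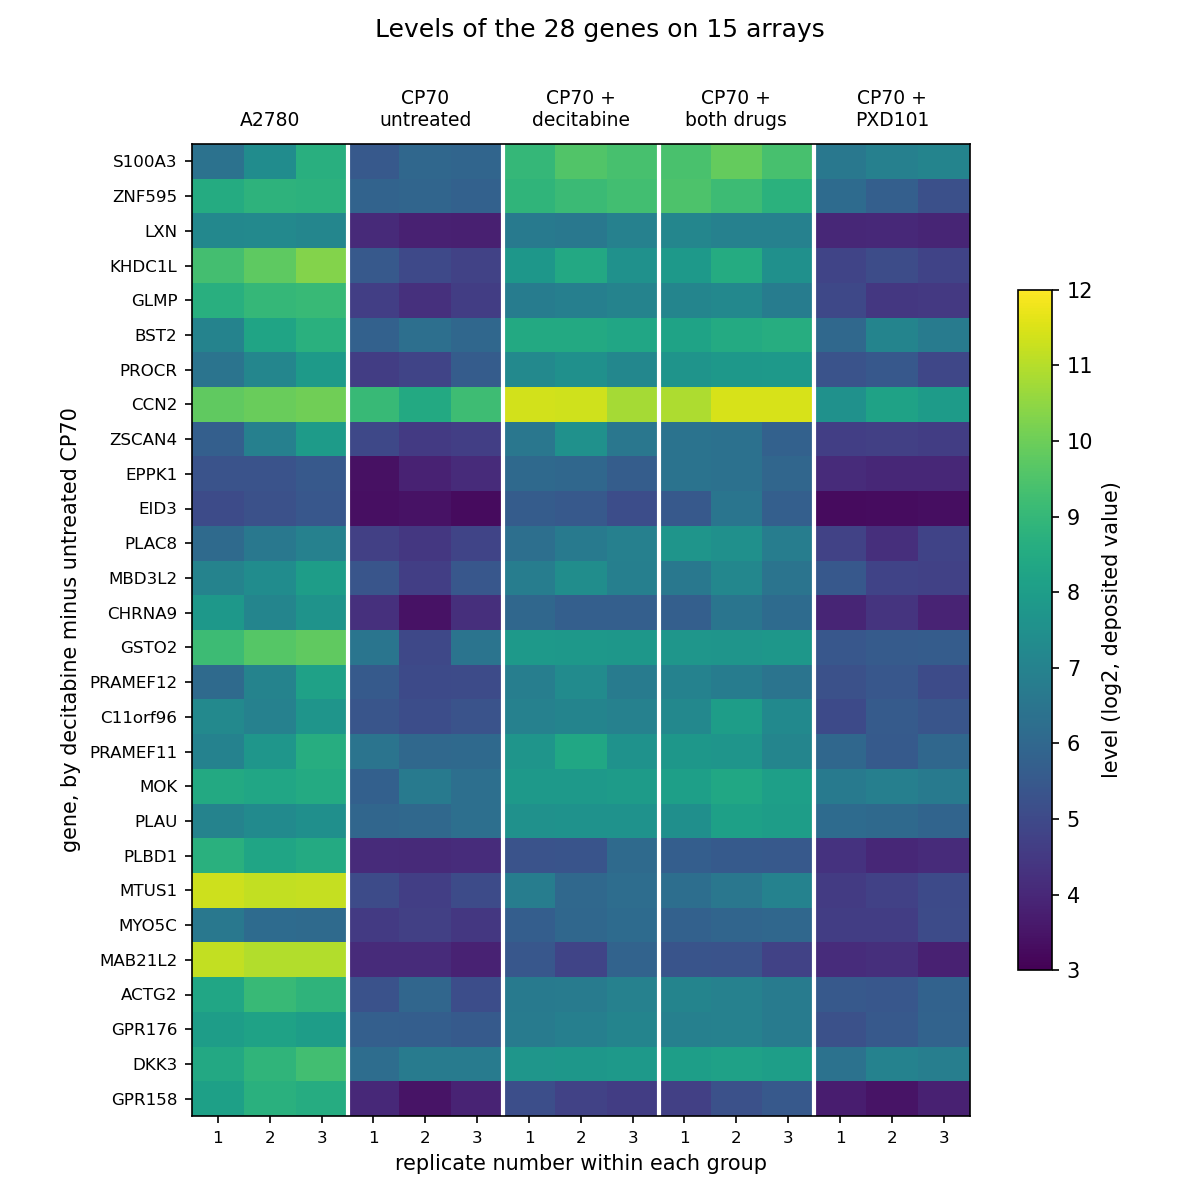
Log2 level of each of the 28 genes (rows, ordered by the difference between decitabine and untreated CP70) on each of the 15 arrays (columns, 3 a group), with colour from dark (3) to bright (12). The untreated and PXD101-treated CP70 columns are dark for most genes, with medians of 4.91 to 5.31, and the decitabine and combined columns lie at medians of 6.80 to 7.20, while MTUS1 and MAB21L2 are brightest in A2780 alone.

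Applied without CP70 replicate 2, the rule kept 29 genes, 26 of them among the 28 (not CCN2 and GPR158), and applied with replicate 2 as the only untreated CP70 array it kept 40, 27 of them among the 28 (not ACTG2). The limits of the rule cut through a continuum. Just inside the limit on the loss in CP70 were CCN2 (1.03 log2) and PLAU (1.16), and just outside, with the other limits met, were MX1 (0.97), SOST (0.97) and MAGEB2 (0.92). Just inside the limit on the difference between decitabine and untreated CP70 were GPR158 (1.04), DKK3 (1.22) and GPR176 (1.24), and just outside were TRIM55 (0.88) and H2BC12L (0.86). Against PXD101, DKK3 (1.04), MOK (1.14) and MYO5C (1.16) were just inside for decitabine, and MMP12 (0.97), CHCHD7 (0.95) and TPM1 (0.83) just outside. For both drugs against PXD101, MAB21L2 (1.09) was inside, and PRAME (1.00) and OLFML3 (0.95) missed the limit.

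Among regulators in the nucleus, ZNF595, a C2H2 zinc finger gene, was 3.23 ± 0.21 (SE) log2 higher after decitabine than in untreated CP70, a ratio of 9.37. ZNF595 had log2 levels of 8.54, 8.81 and 8.77 in A2780, 5.85, 5.95 and 5.81 in untreated CP70, 8.89, 9.15 and 9.26 after decitabine, 9.49, 9.18 and 8.74 after both drugs, and 6.13, 5.71 and 5.20 after PXD101. The 3 decitabine arrays lay above the 3 A2780 arrays, and the PXD101 arrays spread around the untreated ones. ZSCAN4 encodes a SCAN-domain zinc finger protein of the early embryo. In untreated CP70 ZSCAN4 read 4.95, 4.52 and 4.68 log2, against 5.73, 6.91 and 7.95 in A2780, 6.56, 7.55 and 6.57 after decitabine, 6.42, 6.35 and 5.79 after both drugs, and 4.67, 4.71 and 4.63 after PXD101. The decitabine arrays fell inside the wide range of A2780. EID3, which encodes a germline-biased subunit of the SMC5/6 complex of chromosome maintenance, was one of the 7 genes under the 25th percentile in untreated CP70. For EID3 the log2 levels were 5.05, 5.23 and 5.44 in A2780, 3.37, 3.43 and 3.26 in untreated CP70, 5.61, 5.52 and 5.13 after decitabine, 5.52, 6.51 and 5.73 after both drugs, and 3.25, 3.31 and 3.32 after PXD101. Decitabine arrays overlapped those of A2780, and the combined arrays were all above A2780. MBD3L2, a relative of the methyl-CpG-binding-domain gene MBD3, had means of 7.49 log2 in A2780, 5.17 in untreated CP70 and 7.04 after decitabine. MAB21L2, a gene of eye and body-wall development, showed the largest loss of the 28. In untreated CP70 MAB21L2 read 4.11, 4.10 and 3.87 log2, against 11.18, 10.97 and 10.96 in A2780, 5.43, 4.84 and 5.88 after decitabine, 5.34, 5.31 and 4.78 after both drugs, and 4.13, 4.21 and 3.83 after PXD101. It was 129 times lower in untreated CP70 than in A2780 and only 2.56 times higher after decitabine, so the decitabine arrays stayed far below those of A2780.

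The surface and secreted products included ligands, receptors and a protease. CCN2 encodes connective tissue growth factor, a secreted matricellular protein and a well-known target of the YAP and TEAD transcription regulators. CCN2 had log2 levels of 9.79, 9.95 and 10.05 in A2780, 9.05, 8.46 and 9.21 in untreated CP70, 11.39, 11.36 and 10.78 after decitabine, 10.90, 11.47 and 11.46 after both drugs, and 7.55, 8.19 and 7.93 after PXD101. Its decitabine arrays exceeded all A2780 arrays, while its PXD101 arrays were below all untreated arrays. PLAU, the secreted urokinase-type plasminogen activator, had means of 7.27 log2 in A2780, 6.11 in untreated CP70, 7.57 after decitabine and 7.87 after both drugs. PROCR is the endothelial protein C receptor. In untreated CP70 PROCR read 4.65, 4.86 and 5.62 log2, against 6.45, 7.13 and 7.92 in A2780, 7.24, 7.53 and 7.18 after decitabine, 7.67, 7.80 and 7.82 after both drugs, and 5.30, 5.49 and 4.91 after PXD101. Decitabine arrays lay within the A2780 range, which spanned more than 1 log2 unit. BST2 (tetherin) is an interferon-induced membrane protein that holds enveloped virus particles at the cell surface. For BST2 the log2 levels were 7.02, 8.26 and 8.71 in A2780, 5.80, 6.30 and 5.99 in untreated CP70, 8.45, 8.47 and 8.32 after decitabine, 8.21, 8.50 and 8.60 after both drugs, and 6.03, 7.07 and 6.73 after PXD101. A2780 replicate 1 was the lowest of the A2780, decitabine and combined arrays. DKK3, a secreted Dickkopf family member often reported as methylated in cancers, was near the limit of the rule. DKK3 had log2 levels of 8.42, 8.88 and 9.26 in A2780, 6.23, 6.73 and 6.73 in untreated CP70, 7.74, 7.76 and 7.86 after decitabine, 8.05, 8.14 and 8.05 after both drugs, and 6.40, 6.99 and 6.84 after PXD101. Its decitabine arrays were below every A2780 array.

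Receptors of the neural and orphan type stayed well below A2780. GPR158 encodes an orphan receptor expressed mainly in brain. In untreated CP70 GPR158 read 4.05, 3.48 and 3.91 log2, against 8.11, 8.71 and 8.56 in A2780, 5.15, 4.79 and 4.65 after decitabine, 4.71, 5.24 and 5.53 after both drugs, and 3.71, 3.46 and 3.81 after PXD101. The ratio of A2780 to untreated CP70 was 25, and that of decitabine to untreated CP70 was 2.06. CHRNA9 encodes the alpha-9 subunit of the nicotinic acetylcholine receptor. Its mean log2 levels were 7.51 in A2780, 3.97 in untreated CP70, 5.82 after decitabine, 6.12 after both drugs and 4.06 after PXD101. GPR176, another orphan receptor, had corresponding means of 8.06, 5.66, 6.90, 6.88 and 5.53 log2. In all 3 receptor genes the decitabine and combined arrays stayed below every A2780 array.

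Enzymes, inhibitors and lysosomal proteins formed another set. LXN encodes latexin, an inhibitor of carboxypeptidases. LXN had log2 levels of 7.21, 7.24 and 7.13 in A2780, 4.08, 3.84 and 3.79 in untreated CP70, 6.70, 6.60 and 6.97 after decitabine, 7.12, 6.94 and 6.94 after both drugs, and 4.01, 4.03 and 3.93 after PXD101. The arrays within each group differed little. The difference between decitabine and untreated CP70, which the rule used, was 2.86 ± 0.11 (SE) log2. GLMP, a glycosylated lysosomal membrane protein, was 21.3 times lower in untreated CP70 than in A2780. For GLMP the log2 levels were 8.69, 9.01 and 9.07 in A2780, 4.68, 4.24 and 4.62 in untreated CP70, 6.79, 6.89 and 7.03 after decitabine, 7.11, 7.21 and 6.79 after both drugs, and 4.96, 4.47 and 4.48 after PXD101. All treated arrays with decitabine lay between the untreated CP70 and the A2780 arrays. PLBD1, a phospholipase B-like protein, followed the same order with means of 8.50 log2 in A2780, 4.11 in untreated CP70, 5.58 after decitabine and 4.14 after PXD101. GSTO2, an omega-class glutathione transferase active in ascorbate recycling, differed among the untreated CP70 arrays. In untreated CP70 GSTO2 read 6.50, 4.96 and 6.48 log2, against 9.18, 9.64 and 9.80 in A2780, 7.83, 7.80 and 7.78 after decitabine, 7.73, 7.71 and 7.76 after both drugs, and 5.46, 5.58 and 5.61 after PXD101. CP70 replicate 2 was below the PXD101 arrays, and replicates 1 and 3 were above them, whereas the decitabine arrays were higher than all 3. MOK, a kinase of the MAP kinase superfamily, had means of 8.43, 6.25, 7.89, 8.18 and 6.75 log2 in A2780, untreated CP70, decitabine, both drugs and PXD101.

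Genes of the cytoskeleton and of calcium binding included the member with the largest difference after decitabine. S100A3 is an EF-hand calcium-binding protein of the S100 family. S100A3 had log2 levels of 6.38, 7.37 and 8.69 in A2780, 5.53, 6.02 and 5.94 in untreated CP70, 9.01, 9.54 and 9.37 after decitabine, 9.42, 9.86 and 9.37 after both drugs, and 6.61, 6.93 and 7.05 after PXD101. Its A2780 arrays spanned more than 2 log2 units, the decitabine arrays exceeded them all, and the PXD101 arrays lay above the untreated CP70 arrays. EPPK1, the cytolinker epiplakin, which binds intermediate filaments, was another of the 7 genes under the 25th percentile in untreated CP70. For EPPK1 the log2 levels were 5.29, 5.29 and 5.53 in A2780, 3.42, 3.87 and 4.09 in untreated CP70, 6.07, 5.99 and 5.66 after decitabine, 6.43, 6.34 and 5.98 after both drugs, and 4.09, 4.0 and 4.01 after PXD101. Decitabine arrays were higher than every A2780 array. MTUS1, a microtubule-associated tumour suppressor candidate, was 79.9 times lower in untreated CP70 than in A2780. In untreated CP70 MTUS1 read 5.05, 4.67 and 5.04 log2, against 11.32, 11.19 and 11.21 in A2780, 6.80, 6.05 and 6.21 after decitabine, 6.26, 6.56 and 7.0 after both drugs, and 4.55, 4.74 and 5.02 after PXD101. Even the highest array with decitabine, at 7.0 log2 in the combined group, was far below the lowest A2780 array. ACTG2, smooth muscle gamma actin, had means of 8.76 log2 in A2780, 5.45 in untreated CP70 and 6.80 after decitabine, and MYO5C, a class V myosin of epithelial vesicle transport, of 6.28, 4.57 and 5.94. Outside these groups, PLAC8, a small cysteine-rich protein first described in placenta, had means of 6.56, 4.67, 6.63 and 7.33 log2 in A2780, untreated CP70, decitabine and both drugs. C11orf96 had 7.29, 5.25, 7.0 and 7.50.

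Restoration was uneven. The share of the log2 loss regained after decitabine had a median of 83.3% and ran from 19.4% (MAB21L2) to 221% (CCN2). It was 100% or more in 11 genes and under 50% in 5, which were MAB21L2, GPR158 (22.5%), MTUS1 (22.7%), PLBD1 (33.3%) and ACTG2 (40.6%). With both drugs the median was 79.9%, with 10 genes at 100% or more and 6 under 50%. The absolute difference after decitabine did not follow the depth of the loss in the extremes: the largest differences, in S100A3 and ZNF595, came with losses of 1.65 and 2.84 log2, while the largest losses, in MAB21L2 and MTUS1, came with differences of 1.36 and 1.44 log2. Without CP70 replicate 2 the median loss was 2.24 log2, the median difference after decitabine 1.67 log2 and the median share regained 83.1%, with 11 genes at 100% or more and 7 under 50%. With replicate 2 alone these were 2.32 log2, 2.02 log2, 85.5%, 11 and 6. Both differences share the untreated CP70 arrays, so no correlation between them is given.

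**Figure D2:**
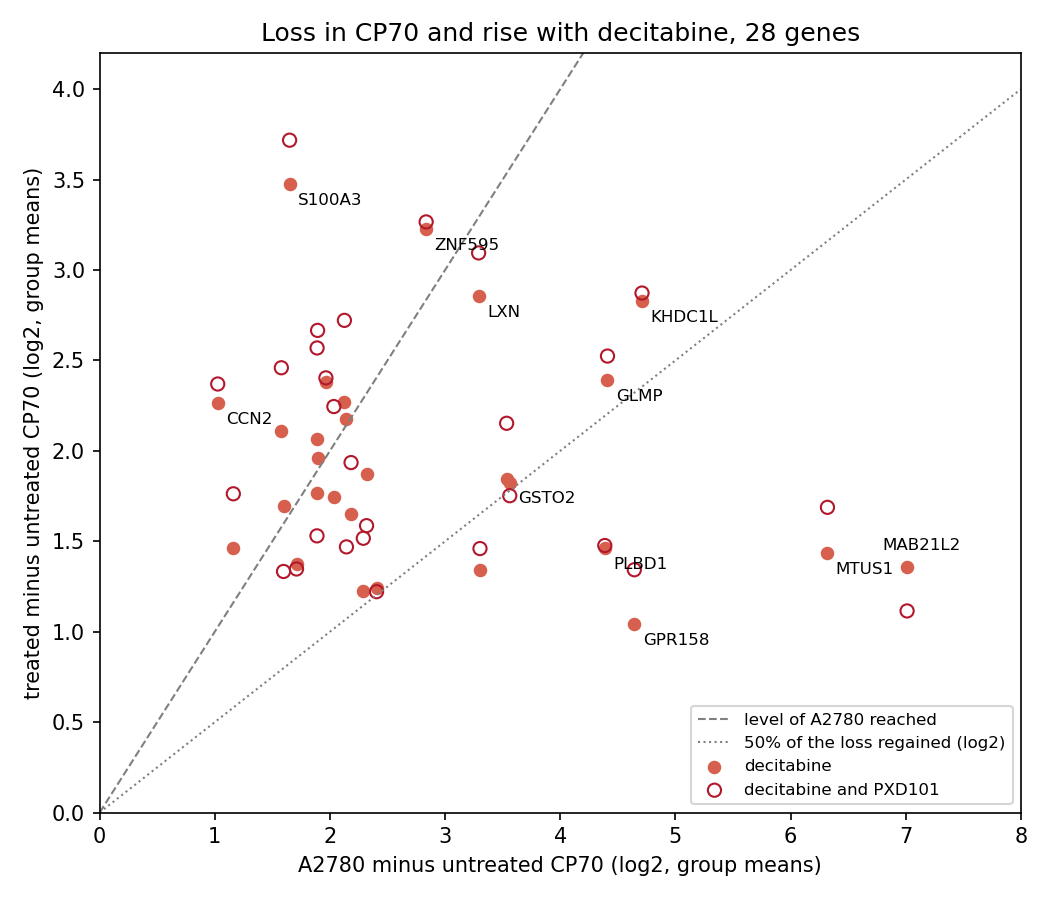
Difference between A2780 and untreated CP70 (horizontal, log2) against the difference between treated and untreated CP70 (vertical, log2) for each of the 28 genes, filled for decitabine and open for both drugs. Points on the dashed line reach the A2780 mean and points on the dotted line regain 50% of the log2 loss: 11 filled points lie on or above the dashed line, and MAB21L2, MTUS1, GPR158, PLBD1 and ACTG2 lie below the dotted one.

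The difference between the treated resistant line and the sensitive line was not itself a limit of the rule. The arrays of both lines entered the rule through other differences, since A2780 and both decitabine groups had to lie at least 1 log2 above untreated CP70. The counts, directions and p-values against A2780, here and with both drugs, are therefore partly set by the choice of genes. In limma, with Benjamini-Hochberg adjustment over all 19775 genes, 16 of the 28 genes differed between decitabine-treated CP70 and A2780 (3 higher, 13 lower), against 29.9% of all genes (17.0% higher and 12.9% lower). S100A3, CCN2 and EPPK1 were higher than in A2780. S100A3 differed by 1.82 ± 0.39 (SE) with adjusted p = 0.00203, from 7.48 ± 1.16 (SD, n = 3) log2 in A2780 to 9.30 ± 0.27 after decitabine. CCN2 differed by 1.24 ± 0.22 (SE) with adjusted p = 0.000529, and EPPK1 by 0.53 ± 0.16 (SE) with adjusted p = 0.0217. The 13 lower genes were led by MAB21L2, at -5.65 ± 0.21 (SE) with adjusted p = 1.79e-11, with means of 11.04 ± 0.12 (SD, n = 3) in A2780 and 5.39 ± 0.52 after decitabine. MTUS1 (-4.88), GPR158 (-3.60), PLBD1 (-2.92) and GLMP (-2.02) followed, with limma adjusted p of at most 1.39e-07. ACTG2, KHDC1L, GSTO2, CHRNA9, GPR176 and DKK3 were different by -1.96 to -1.07 log2, MOK by -0.54 ± 0.17 (SE) with adjusted p = 0.0235, and LXN by -0.44 ± 0.11 (SE) with adjusted p = 0.00549. The calls of EPPK1 and MOK were each lost in 4 of the fits that left out 1 array: EPPK1 without A2780 replicate 1 or 2 or decitabine replicate 1 or 2 (adjusted p = 0.072 to 0.0912), and MOK without A2780 replicate 1 or 3 or decitabine replicate 1 or 2 (adjusted p = 0.0623 to 0.0756). Rank product called 10 of the 28 (5.86% of all genes), 9 lower and only S100A3 higher, so it did not call CCN2 or EPPK1. Arrays of the 2 groups did not overlap in 18 of the 28 genes, against 42.8% of all genes.

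With both drugs, 17 of the 28 genes differed from A2780 in limma (6 higher, 11 lower), against 30.9% of all genes (17.3% higher and 13.6% lower). The same 3 genes were higher, S100A3 by 2.07 ± 0.39 (SE) with adjusted p = 0.000697, CCN2 by 1.34 ± 0.22 (SE) with adjusted p = 0.000247 and EPPK1 by 0.88 ± 0.16 (SE) with adjusted p = 0.000611, and PLAC8 (0.77, adjusted p = 0.0309), EID3 (0.68, adjusted p = 0.0165) and PLAU (0.60, adjusted p = 0.00852) were added. PLAC8 lost its call without A2780 replicate 1 or 2 or combined replicate 1 or 2 (adjusted p = 0.0662 to 0.152), EID3 without A2780 replicate 1 or combined replicate 2 (0.0718 and 0.0738), and PLAU without combined replicate 2 (0.0542). 14 genes were called in both comparisons, which share the A2780 arrays, and 9 in neither: BST2, C11orf96, MBD3L2, MYO5C, PRAMEF11, PRAMEF12, PROCR, ZNF595 and ZSCAN4. Some of the 9 were called in other fits. ZNF595 was called higher than A2780 with its probe sets averaged (0.57 log2, adjusted p = 0.00943 after decitabine, and 0.71, 0.00201 after both drugs), after decitabine with only the 2 groups fitted (0.39, 0.0407), and after both drugs without combined replicate 3 (0.63, 0.0384). PROCR was called higher after both drugs without A2780 replicate 3 (0.97, 0.0127). MBD3L2 was called lower after both drugs in 6 settings (-0.95 to -0.62, adjusted p = 0.0309 to 0.0477). A missed threshold does not show equal levels. The 95% interval of the difference between decitabine and A2780 was -0.83 to 0.89 log2 for ZSCAN4, -0.50 to 0.79 for PROCR, -0.29 to 1.12 for BST2 and -0.05 to 0.84 for ZNF595. With both drugs against A2780, rank product called 10 of the 28 (5.73% of all genes), 9 lower and only S100A3 higher. Arrays did not overlap in 17 of the 28 genes between both drugs and A2780, against 47.2% of all genes.

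**Figure D3:**
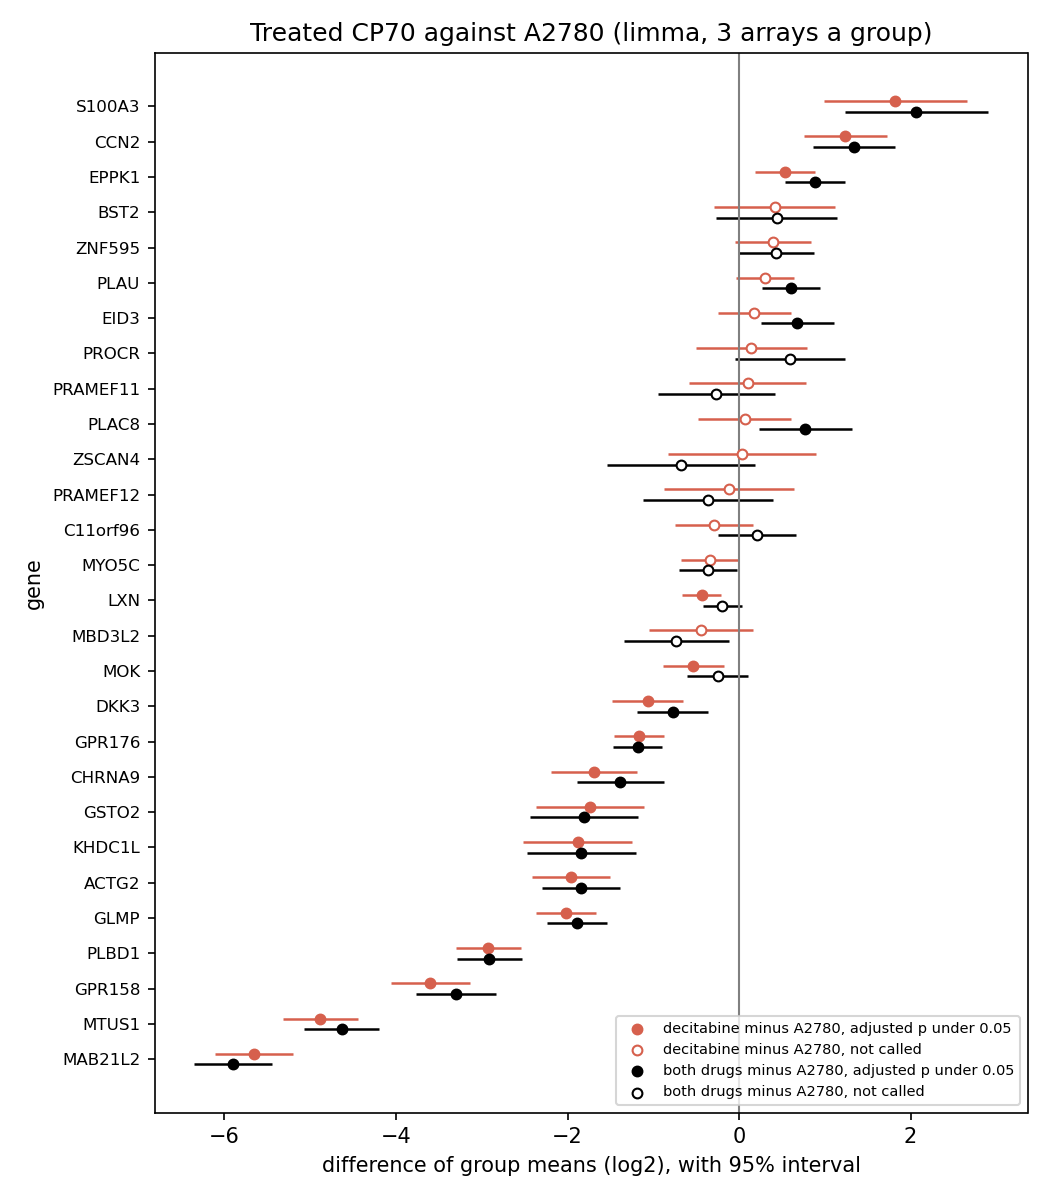
Difference of group means from A2780 (log2, with the 95% interval of the limma fit) for each of the 28 genes, after decitabine (red) and after both drugs (black), with filled points for an adjusted p under 0.05. The genes run from S100A3 at 1.82 (decitabine) down to MAB21L2 at -5.65, and 9 genes near 0 are open in both comparisons.

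Adding PXD101 to decitabine gave no call among these genes. The rule required the means of both groups to lie at least 1 log2 above untreated CP70 and above PXD101. Genes that met every limit only with both drugs were thus left out, such as TRIM55 (5.97 log2 after decitabine, 7.06 after both drugs). The count of called genes is therefore partly set by the rule. In limma 0 of the 28 differed between both drugs and decitabine alone (adjusted p = 1 in each), against 2 of all genes (0.0101%). At an unadjusted p under 0.05, 4 were higher and 0 lower: PLAC8 by 0.71 ± 0.25 (SE), EID3 by 0.50 ± 0.20, C11orf96 by 0.50 ± 0.21 and LXN by 0.24 ± 0.11 log2. Rank product, which the submitters' design text names, called 1 of the 28, PLAC8, higher (0.101% of all genes at a percentage of false positives under 5). PLAC8 read 6.28, 6.67 and 6.92 log2 after decitabine and 7.68, 7.52 and 6.80 after both drugs, so replicate 3 of the combined group fell inside the decitabine range. 20 of the 28 means were higher and 8 lower with both drugs, with a median difference of 0.13 log2 beside -0.01 over all genes. The 95% intervals had half-widths of 0.23 log2 (LXN) to 0.86 log2 (ZSCAN4), which bounds what 3 arrays a group could detect. Arrays did not overlap in 6 of the 28, against 10.6% of all genes: C11orf96, DKK3, MOK and PROCR were higher with both drugs on every array, and GSTO2 and ZSCAN4 were lower. ZSCAN4 had the most negative difference, -0.71 log2 with a 95% interval of -1.57 to 0.16.

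After PXD101 alone, the means of the 28 genes differed from untreated CP70 by -1.02 to 1.03 log2, with a median of 0.03. The rule required them to lie at least 1 log2 below those after decitabine and after both drugs. This limited how far a chosen gene could rise with PXD101, so the median and the count of called genes are partly set by the rule. In limma 1 of the 28 differed between PXD101 and untreated CP70, against 10.7% of all genes (5.57% higher and 5.15% lower). CCN2 fell by 1.02 ± 0.22 (SE) log2 (adjusted p = 0.0229), from 8.91 ± 0.39 to 7.89 ± 0.32 (SD, n = 3). The call was lost when only those 2 groups were fitted (adjusted p = 0.207), without CP70 replicate 1 (0.136) or 3 (0.141), and without PXD101 replicate 1 (0.0846), 2 (0.062) or 3 (0.0671). With CP70 replicate 2 as the only untreated array, whose spread was assumed to be that of the other groups, the difference was -0.57 log2 (adjusted p = 1). S100A3 was at 5.53, 6.02 and 5.94 log2 before and 6.61, 6.93 and 7.05 after PXD101, a difference of 1.03 ± 0.39 (SE) with adjusted p = 0.0972, and rank product called it higher (1.8% of all genes in either direction). MOK differed by 0.51 ± 0.17 (SE) with adjusted p = 0.063. Without CP70 replicate 2, 3 genes were called in limma: CCN2, GSTO2 (-0.94 log2, adjusted p = 9.57e-05) and MOK (0.72 log2, adjusted p = 0.00095). Without A2780 replicate 1 or 3 S100A3 was called as well (adjusted p = 0.0392 and 0.0331). Arrays did not overlap in 4 of the 28, against 22.2% of all genes: S100A3 and MOK were higher and CCN2 and PRAMEF11 lower after PXD101. In 17 of the 28 genes CP70 replicate 2 lay nearer to the PXD101 mean than CP70 replicates 1 and 3 did, beside 66.8% of all genes. The change with both drugs minus the sum of the changes with each drug was called in 0 of the 28 and in 3 of all genes by limma, with 2 of the 28 at an unadjusted p under 0.05 and a lowest adjusted p of 0.191. Exposure to PXD101 was 48 h alone and 24 h in the combination, which bears on that term.

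ZSCAN4, KHDC1L, MBD3L2, PRAMEF11 and PRAMEF12 belong to families that are switched on when the human embryonic genome is first activated, a programme driven by the transcription factor DUX4. This grouping was made after the values were seen, from a list of 49 such genes of which 15 were measured on named probe sets. KHDC1L is a relative of the KH-domain gene KHDC1. In untreated CP70 KHDC1L read 5.51, 4.97 and 4.79 log2, against 9.30, 9.75 and 10.34 in A2780, 7.77, 8.42 and 7.56 after decitabine, 7.83, 8.53 and 7.52 after both drugs, and 4.86, 5.08 and 4.82 after PXD101. PRAMEF12, of the PRAME gene family, moved over a smaller range. For PRAMEF12 the log2 levels were 6.12, 7.04 and 8.14 in A2780, 5.55, 5.03 and 5.05 in untreated CP70, 6.86, 7.34 and 6.73 after decitabine, 7.0, 6.77 and 6.45 after both drugs, and 5.22, 5.45 and 5.06 after PXD101. Its neighbour PRAMEF11 had means of 7.79 log2 in A2780, 6.19 in untreated CP70, 7.89 after decitabine, 7.52 after both drugs and 5.85 after PXD101. PRAMEF and MBD3L genes have near-identical copies, so which copies a probe set reads is uncertain. Replicates ranked alike across all 5 genes in 3 of the groups. In A2780, replicate 1 was the lowest and replicate 3 the highest in 5 of 5 genes, and the mean level of the 5 was 7.04, 7.77 and 8.61 log2 on the 3 arrays, a range of 1.57, against 0.43 for the mean of the other 23. After decitabine, replicate 2 was the highest in 5 of 5 (means of 7.14, 7.82 and 7.07, a range of 0.74 against 0.06). After both drugs, replicate 3 was the lowest in 5 of 5 (7.13, 7.30 and 6.67, a range of 0.63 against 0.22). In untreated CP70, replicate 1 was the highest in 4 of 5 (range 0.53 against 0.15), and after PXD101 the highest array was split between replicates 1 and 2 (range 0.19 against 0.1). A mean over 23 genes tends to vary less than a mean over 5, so these ranges are not directly comparable. The order within A2780 was not confined to these genes: 10 of the other 23 had the same order, and S100A3, BST2 and PROCR differed between replicates 3 and 1 by 2.31, 1.69 and 1.48 log2, beside 0.98 to 2.22 in the 5. Over all 28 genes, A2780 replicate 3 was the highest in 18 and replicate 1 the lowest in 19, beside 36.5% and 42.1% of all genes. In limma, KHDC1L differed from A2780 by -1.88 ± 0.30 (SE) with adjusted p = 0.000147 after decitabine, and the other 4 did not pass the threshold there, with 95% intervals as wide as -0.83 to 0.89 log2 (ZSCAN4). Without A2780 replicate 1, ZSCAN4 (-1.24 log2, adjusted p = 0.00886), MBD3L2 (-0.95, 0.0309) and PRAMEF12 (-0.85, 0.041) were called lower than A2780 after both drugs. The other 10 measured genes of the list were not among the 28, and 9 of them had all 5 group means below the median of all gene values (6.28 log2). KHDC1, which lies next to KHDC1L, had means of 7.30 log2 in A2780, 4.42 in untreated CP70 and 4.59 after decitabine. CCNA1, a germline cyclin, went from 3.54 to 6.20 log2 after decitabine, but its A2780 mean was 3.59.

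**Figure D4:**
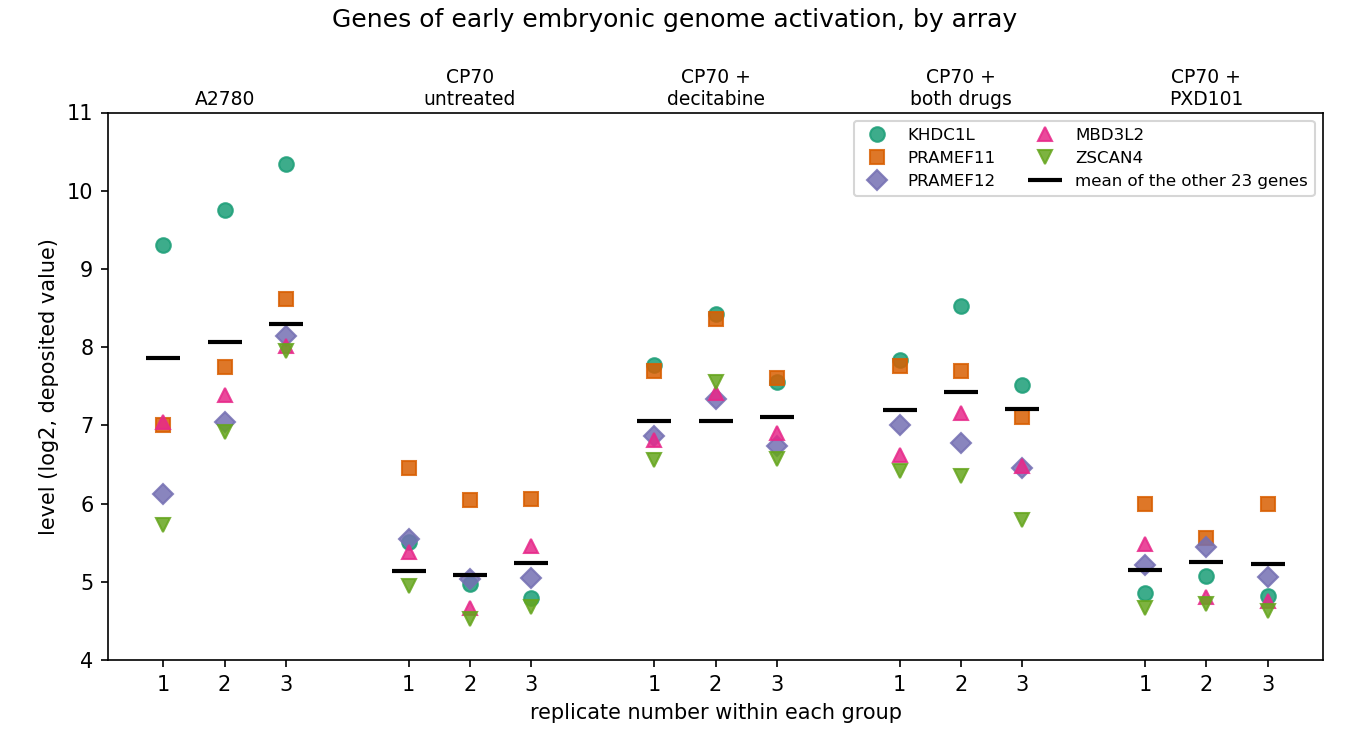
Log2 level of KHDC1L, PRAMEF11, PRAMEF12, MBD3L2 and ZSCAN4 on each of the 15 arrays (points), beside the mean of the other 23 genes on that array (black bars). In A2780 the mean of the 5 genes runs from 7.04 on replicate 1 to 8.61 on replicate 3, and after decitabine replicate 2 is highest in all 5, while the bars move by 0.43 and 0.06 within those groups. The bars average more genes, which by itself tends to narrow their range.

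The promoters of these genes held few CpG dinucleotides compared with those of other genes, a property the rule did not use. RefSeq windows of 300 bases (250 before and 50 after the start, GRCh38.p14) were matched by Entrez gene ID for 22 of the 28 genes. C11orf96, DKK3, EID3, EPPK1, MAB21L2 and MTUS1 had no window. The median number of CpG was 7, against 22 over 15381 genes, 24 over 709 other genes at least 1 log2 lower in untreated CP70, and 18 over 201 other genes at least 1 log2 higher after decitabine. A ratio of observed to expected CpG of 0.6 or more, which is among the usual criteria for a CpG island, was met by 7 of 22 windows (31.8%). The shares in those 3 sets were 66.5%, 71.9% and 54.2%. GC content and length were not applied as criteria, and GLMP met the ratio at 40.3% GC, so this does not count CpG islands. With the richest window of each gene in place of the first, the median was 10.5 against 25 over all genes, and 9 of 22 (40.9%) met the limit against 71.0%. These are descriptions of 22 chosen genes, without a test. The range ran from 2 CpG (BST2 and ZSCAN4) to 37 (GPR158). To show that range, the 250 bases before the start of 6 genes are printed 5′ to 3′ on the strand of the gene, with each CpG in capitals. They are GPR158 (chr10:25174751-25175000, plus strand, 31 CpG in the part printed), GLMP (chr1:156295680-156295929, minus strand, 6), ZNF595 (chr4:53071-53320, plus strand, 10), LXN (chr3:158672649-158672898, minus strand, 7), S100A3 (chr1:153549259-153549508, minus strand, 4) and ZSCAN4 (chr19:57668685-57668934, plus strand, 2).
GPR158: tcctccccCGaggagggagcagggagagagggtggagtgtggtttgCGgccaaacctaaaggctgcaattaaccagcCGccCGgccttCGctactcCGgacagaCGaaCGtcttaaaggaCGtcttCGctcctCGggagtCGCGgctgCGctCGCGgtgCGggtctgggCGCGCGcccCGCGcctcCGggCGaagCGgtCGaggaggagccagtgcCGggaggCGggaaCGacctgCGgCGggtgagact
GLMP: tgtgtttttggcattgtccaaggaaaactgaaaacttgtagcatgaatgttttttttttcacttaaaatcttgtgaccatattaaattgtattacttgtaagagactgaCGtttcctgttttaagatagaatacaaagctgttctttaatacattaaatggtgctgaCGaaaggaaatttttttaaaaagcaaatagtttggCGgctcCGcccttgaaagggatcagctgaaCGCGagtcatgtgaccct
ZNF595: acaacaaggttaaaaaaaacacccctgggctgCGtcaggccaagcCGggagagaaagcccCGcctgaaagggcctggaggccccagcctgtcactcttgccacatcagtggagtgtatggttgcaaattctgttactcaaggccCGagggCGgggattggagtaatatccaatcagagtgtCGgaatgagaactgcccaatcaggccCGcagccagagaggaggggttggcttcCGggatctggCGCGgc
LXN: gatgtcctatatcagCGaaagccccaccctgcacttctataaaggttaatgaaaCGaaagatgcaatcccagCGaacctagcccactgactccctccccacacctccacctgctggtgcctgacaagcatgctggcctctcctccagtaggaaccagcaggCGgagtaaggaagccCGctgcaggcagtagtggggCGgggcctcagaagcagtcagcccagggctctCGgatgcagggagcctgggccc
S100A3: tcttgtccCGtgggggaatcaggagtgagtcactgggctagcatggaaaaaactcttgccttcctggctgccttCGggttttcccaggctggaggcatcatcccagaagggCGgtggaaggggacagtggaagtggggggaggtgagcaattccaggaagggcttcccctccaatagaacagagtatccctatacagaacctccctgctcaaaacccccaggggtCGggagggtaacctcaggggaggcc
ZSCAN4: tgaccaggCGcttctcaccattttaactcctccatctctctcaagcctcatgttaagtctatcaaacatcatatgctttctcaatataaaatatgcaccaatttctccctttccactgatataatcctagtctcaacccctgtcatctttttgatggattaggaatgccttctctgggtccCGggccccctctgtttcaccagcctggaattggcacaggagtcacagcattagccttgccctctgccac

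GPR158, with the most CpG of the 22 windows, had the smallest difference between decitabine and untreated CP70 of the 28 genes, 1.04 log2. S100A3, with the largest difference (3.47 log2), had 5 CpG in its 300 bases. LXN and ZNF595, with 2.86 and 3.23 log2, had 9 and 12. Windows with few CpG also came with smaller differences, in ACTG2 (5 CpG, 1.34 log2), PRAMEF11 (3, 1.70) and PRAMEF12 (5, 1.77). The rule used these differences, and their relation to CpG content was not tested. PLAC8 and PLAU each had 5 CpG in the first window and a second, richer window with 31 and 28. Methylation of these sites was not measured.

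**Figure D5:**
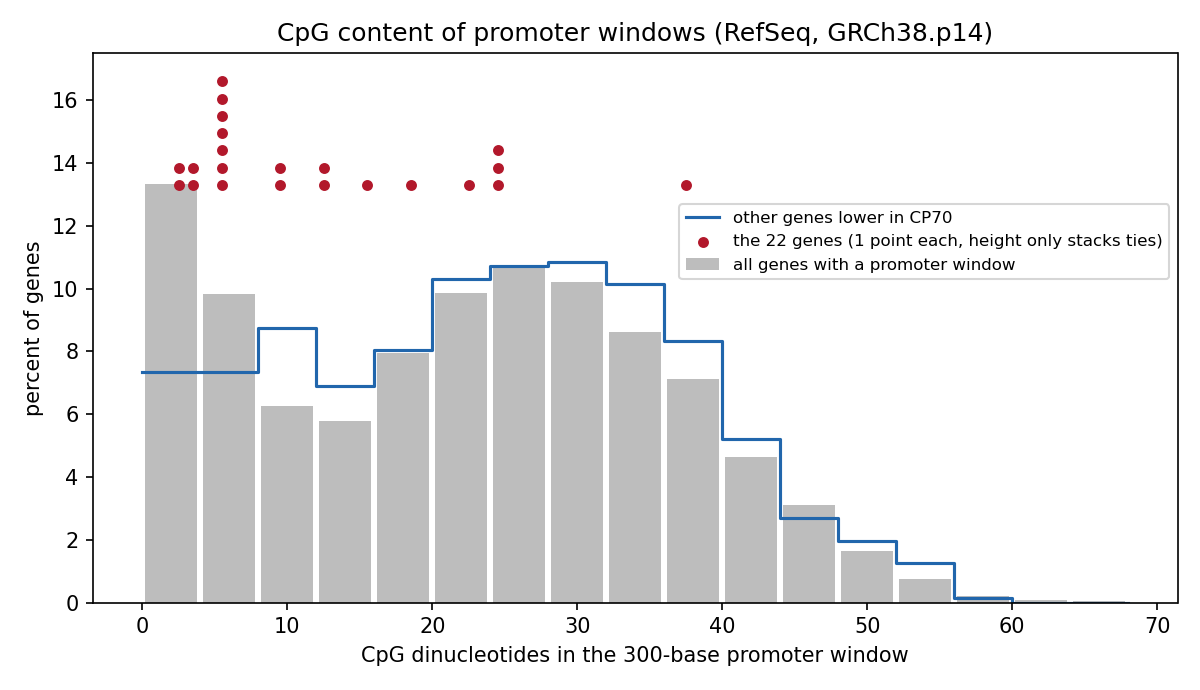
Number of CpG dinucleotides in the 300-base promoter window, as the percent of all 15381 genes with a window (grey bars), of 709 other genes lower in untreated CP70 (blue line), and as 1 red point for each of the 22 genes with a window (the height of the points only stacks ties). The red points lie mostly at the left, with a median of 7 CpG against 22 for all genes, and GPR158 stands alone at 37.

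Motifs were searched on both strands. CATTCC or its reverse complement GGAATG, the site bound by TEAD factors, was in 6 of 22 windows (CCN2, GPR176, KHDC1L, PRAMEF12, ZNF595 and ZSCAN4), against 11.9% of all windows. CCN2 had 3 matches. The interferon-response motif (GAAA, any 2 bases and GAAA, or its reverse complement) was in 3 of 22 (BST2, MBD3L2 and PRAMEF12), against 2.95%, and BST2 had 2 overlapping matches. TATAAA or TTTATA was in 7 of 22 against 8.76%, and the E-box CACGTG in 2 of 22 against 8.9%. The DUX4 motif (TAA, C or T at each of the next 3 bases, then AATCA, or its reverse complement) was in 0 of 22 against 0.08%. With so rare a motif a match in 22 windows is unlikely, so no conclusion is drawn from its absence. A match describes letters in the window, not binding. The promoters of CCN2 (chr6:131951373-131951622, minus strand) and BST2 (chr19:17405631-17405880, minus strand) are printed because each is a known target of the factors named, with the TEAD motif in capitals in CCN2 and the interferon-type motif in capitals in BST2.
CCN2: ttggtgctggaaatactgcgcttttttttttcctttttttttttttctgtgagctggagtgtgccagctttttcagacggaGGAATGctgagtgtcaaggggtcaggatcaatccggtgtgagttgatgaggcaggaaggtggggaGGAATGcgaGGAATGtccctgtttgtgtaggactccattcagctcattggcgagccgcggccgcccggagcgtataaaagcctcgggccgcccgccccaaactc
BST2: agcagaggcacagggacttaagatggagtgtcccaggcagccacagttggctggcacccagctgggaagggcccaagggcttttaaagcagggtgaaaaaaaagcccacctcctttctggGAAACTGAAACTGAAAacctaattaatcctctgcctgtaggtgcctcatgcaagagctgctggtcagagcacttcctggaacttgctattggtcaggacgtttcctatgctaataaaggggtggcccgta

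The genes were spread over 13 chromosomes. Of 55 adjacent genes measured on the arrays, 6 were at least 1 log2 lower in untreated CP70 than in A2780 (4.61% of all genes were) and 3 at least 1 log2 higher after decitabine (1.52%). PRAMEF11 and PRAMEF12, each counted as the other's neighbour, made up 2 of the 6 and 2 of the 3. Without them the counts were 4 and 1 of 53. ZNF718, the zinc finger gene next to ZNF595, had means of 7.20 log2 in A2780, 3.06 in untreated CP70 and 3.06 after decitabine. It shared the loss, and its mean after decitabine was that of untreated CP70. These zinc finger genes are similar in sequence, so their probe sets may not be fully specific. S100A2, next to S100A3, went the other way between the lines, from 6.75 log2 in A2780 to 11.07 in untreated CP70, and was 12.74 after decitabine. PDGFRL, next to MTUS1, had 9.80 in A2780, 7.47 in untreated CP70 and 6.51 after decitabine.

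Other probe sets of the same genes gave a second reading that the rule did not use. 12 of the 28 genes had 22 further probe sets, of which 15 had all 5 differences above 0 and 4, in EPPK1, GLMP, PLAU and ZSCAN4, met every limit. The second ZSCAN4 probe set differed by 3.69 log2 between A2780 and untreated CP70 and by 3.52 log2 between decitabine and untreated CP70, more than the one used, and that of PLAU by 1.77 and 2.03 log2. Some readings were flat or partial. The other MAB21L2 probe set was 3.71 log2 higher in A2780 than in untreated CP70 but only 0.18 higher after decitabine, and 2 MTUS1 probe sets were 4.07 and 5.17 log2 higher in A2780 but 0.46 and 0.55 higher after decitabine. The third further MTUS1 probe set was only 0.95 log2 higher in A2780 than in untreated CP70, and differed by -0.06 log2 after decitabine and -0.19 after both drugs. The other ZNF595 probe set showed no such loss (0.08 log2) but was 0.83 log2 higher after decitabine. The other probe sets of ACTG2 and C11orf96 showed neither difference, at 0.03 and 0.01 log2 between A2780 and untreated CP70. Apart from the EPPK1 probe set that met every limit, its others differed by 0.19, 0.13 and -0.17 log2 between those groups. The further DKK3 probe sets differed by 1.88, 1.88, 0.47, -0.04 and -0.13 log2 between them. After decitabine these DKK3 probe sets differed from untreated CP70 by 0.997, 0.62, 0.12, -0.16 and -0.15 log2. The last 3 were below the lower quartile in every group. With the probe sets of each gene averaged, 22 genes met the rule, 21 of them among the 28; ACTG2, C11orf96, DKK3, EPPK1, GPR176, MAB21L2 and MTUS1 were lost.

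Gene groups commonly followed after decitabine held 3 of the 28. Of 8 lists, with 397 different genes measured, these were 0.756% of the list genes, beside 0.142% of all genes. They were DKK3 among 79 measured methylation-silenced cancer genes and among 78 signalling genes, BST2 among 54 interferon-stimulated genes, and ACTG2 among 55 actin and contractile genes. The rule left out symbols of interferon-related families by name, and IFI27 and PSMB8 otherwise met its limits, so the interferon count is lowered by construction. There were 0 among 54 germ cell and cancer-testis genes, 52 adhesion genes, 26 genes of the DNA methylation machinery and 11 histone deacetylases. In the methylation-silenced list, 15 of 79 were at least 1 log2 lower in untreated CP70 than in A2780, beside 4.61% of all genes. After decitabine 7 were at least 1 log2 higher than in untreated CP70, beside 1.52% of all genes. The median difference of the list after decitabine was 0.01 log2, beside 0.02 over all genes. Against A2780, 19 of the 79 were called higher and 19 lower in limma after decitabine, and 21 and 21 with both drugs. Of all genes, 17.0% were called higher and 12.9% lower than in A2780 after decitabine, and 17.3% and 13.6% with both drugs. The interferon list had 4 of 54 lower in untreated CP70 and 20 higher after decitabine by that limit. In limma after decitabine, 28 of the 54 were called higher and 2 lower than in A2780. The germ cell list had 1 of 54 lower in untreated CP70 and 24 higher after decitabine, and 35 were called higher and 1 lower than in A2780. The actin list had 14 of 55 lower in untreated CP70 and 8 higher after decitabine, and 19 were called higher and 14 lower than in A2780. With PXD101 alone, limma called 4 higher and 6 lower of 79 in the methylation-silenced list, 1 and 4 of 54 in the interferon list, 2 and 0 of 54 in the germ cell list, and 7 and 1 of 55 in the actin list. Of all genes, 5.57% were called higher and 5.15% lower after PXD101.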

How the data were processed

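RNA of 15 samples (5 groups of 3 biological replicates, per the series' design text) was measured on Affymetrix arrays after amplification with the NuGEN WT-Ovation Pico system, per the labels' protocols. The authors deposited 1 table of log2 values for 54675 probe sets; R 2.10.1 and affy are named in the submitters' processing notes, and the background correction, normalization and probe summarization are not given in the sources used. Arrays give no counts, and their number limits the precision. The 62 control probe sets were left out; 41091 of the others had 1 gene symbol, 1801 several and 11721 none in the annotation table used here. Of the single-symbol probe sets, 41037 were updated to RefSeq symbols by Entrez ID and 54 kept the annotation's symbol. Each gene was read on its probe set with the highest mean of the 15 arrays, which gave 19775 genes. The members, gene lists, tests and alternatives were chosen with earlier results of these data known. Differences of group means with SE, intervals and p-values came from limma 3.58.1 (lmFit, eBayes; R 4.3.3) on all 15 arrays and all genes, without a block, at a Benjamini-Hochberg adjusted p under 0.05. Rank product (Python 3.11.15 with numpy 2.4.6; 9 pairwise differences, 100 permutations) at under 5% of false positives was an alternative. Both were tested on simulated data. Alternatives were the two-group fit, array weights, a replicate block, a filter at the median level, probe sets averaged per gene, repeated quantile normalization, median centring, other limits of the rule and leaving out arrays. The genes named were the 12 with the largest difference after decitabine, the 5 highest and 5 lowest against A2780, called genes of the other tests, list members, genes nearest each limit and genes whose probe sets disagreed; the other members and the neighbours were named after their values were seen. Promoter windows came from RefSeq (GRCh38.p14). Replicates were not paired, since in no comparison did the deviations of all same-numbered arrays correlate above 0.1.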

Additional observations from a re-analysis of the deposited data

How the results depend on the processing

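The count of genes meeting the rule depended on its limits: 28 genes became 49 with limits of 0.8 log2, 14 with 1.5 log2, and 17 when only genes above the median level were kept, which by construction holds 17 of the 28. Leaving out 1 array gave 27 to 34. Of the counts of called genes below, those above the median level are out of 17 and the others out of 28. For both drugs against decitabine the count of called genes was 0 without each array in turn and 1 by rank product, with medians of 0.07 to 0.22 log2. For PXD101 against untreated CP70 it was 1, and it became 2 above the median level, 8 with array weights (5 higher), 0 with only the 2 groups, 0 without CP70 replicates 1 and 3 together, 2 by rank product, and 0 to 3 without 1 array, the 3 coming without CP70 replicate 2; medians ran from -0.05 to 0.04 log2. For decitabine against A2780 it was 16, and it became 10 above the median level and 10 by rank product, and 14 to 16 without 1 array, with medians of -0.52 to -0.30 log2. For both drugs against A2780 it was 17, and it became 10 above the median level and 10 by rank product, and 15 to 18 without 1 array, with medians of -0.75 (without A2780 replicate 1) to -0.22 log2 (without A2780 replicate 3). No difference that was called in either fit changed sign among these settings. Differences that were not called did in 4 to 19 of the 28 genes per comparison, none of which was over 0.44 log2 in size with all arrays, and the median for PXD101 against untreated CP70 ran from -0.07 (above the median level) to 0.11 log2 (without CP70 replicates 1 and 3 together). The causes were not tested. Replicate numbers did not pair the samples, and with the replicate block the counts stayed at 0, 1, 16 and 17 of the 28. With 3 arrays a group, a difference between both drugs and decitabine was estimated only to within 0.23 to 0.86 log2.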
